A study of Mus musculus with 9 samples.

Results

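The genes described here are 52 genes of the extracellular matrix, taken by symbol from the 31685 genes measured in mouse jejunum, and all 52 were found. They were sorted by role into 12 interstitial collagens, 15 basement membrane genes, 5 proteoglycans, 7 elastic fibre genes, 7 adhesive and matricellular glycoproteins, and 6 remodelling enzymes and inhibitors. RNA was sequenced from the jejunum of 9 wild-type male C57BL/6J mice aged 6 to 8 weeks, 3 in each of 3 groups, and all samples carry the same batch label. Control mice were untreated. TAI mice received 12 Gy of total abdominal irradiation and PBS. TAI/IVIg mice received the same irradiation and intravenous immunoglobulin (IVIg, antibodies pooled from human donors) at 500 mg/kg, first given within 1 h of the exposure and repeated every 3 days. The tissue of all groups was taken on day 3, so irradiated mice without IVIg differ from the control mice in both the exposure and the PBS injection.

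The matrix of the gut wall has a loose part and a sheet. The interstitial matrix lies between cells and is built mainly by fibroblasts and smooth muscle from fibrillar collagens, proteoglycans and elastic fibres. The basement membrane is a thin sheet of collagen IV, laminins, nidogens and perlecan under the epithelium and around vessels and muscle, and enzymes such as Mmp2 cut the matrix while the Timp proteins inhibit them.

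Levels are given as FPKM, a count of sequenced fragments divided by gene length and by the library total, so levels can be set side by side between genes. The libraries held 16284531 to 18244739 reads. The 10 most abundant genes took 6.90% to 9.61% of the reads in control mice, 10.97% to 12.8% in TAI mice and 11.8% to 14.6% in TAI/IVIg mice. The labels call the tissue epithelial, and the 13 epithelial markers summed to FPKM 14434 to 35397. The 11 smooth muscle markers were present as well, at summed FPKM 189 to 1210.2, so the libraries also held RNA from outside the epithelium. TAI/IVIg mouse 3 stood apart: it had the lowest value of the 9 mice for 46 of the 52 matrix genes and the lowest smooth muscle sum.

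A gene was tested where its FPKM was at least 1 in at least 3 mice. This held for 13056 genes and for 44 of the 52 matrix genes. The other 8 were Col5a3, Col4a5, Col4a6, Lama2, Vcan, Fbln2, Mfap5 and Lox. Their highest value in any mouse was FPKM 1.49, for Vcan, and they are described by level only. A low gene could pass through high values in some groups only, as Col12a1 did without any control mouse, so counts over the 44 describe the tested genes and not the whole list. Differences below are differences in mean log2(FPKM + 1) from limma with Benjamini-Hochberg adjustment over the 13056 genes, given with a standard error (SE), and a gene was called at an adjusted p under 0.05. The p-values rest on 1 spread per gene, taken between the 3 mice within each group over all groups and moderated across genes. Mice of the group not compared thus also enter a p-value.

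In TAI mice, 5 of the 44 tested matrix genes were higher than in control mice and 0 were lower. The 5 were Fbln1 and Fbln5, which code for fibulins that bind elastic fibres and basement membranes, Thbs1 and Tnc, which code for the matricellular proteins thrombospondin-1 and tenascin-C, and Col14a1, the chain of a collagen that sits on the surface of collagen fibrils. Over all genes tested, 8.81% were called higher and 26.1% lower. In this fit of all 9 mice the share of matrix genes called higher, 11.4%, was close to the background, while 0 of the 44 were called lower. Other fits called 2 to 16 matrix genes higher, as given below with the counts over all genes. The median difference of the matrix genes was 0.33 against -0.235 for all genes, and 39 of 44 had a positive difference (33.6% of all genes did). Without control mouse 2 the median of the matrix genes was 0.51. A positive median was not particular to them. Marker genes had medians of 0.36 (fibroblast), 0.35 (endothelial), 0.18 (smooth muscle) and 0.32 (enteric neuron and glia) in this comparison. Adipocyte markers had 0.84 and mesothelial markers 0.22, while macrophage markers had -0.11 and epithelial markers -0.046. In bulk tissue, more cells of a type and more RNA per cell cannot be told apart.

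The rise of Fbln1 was the largest of the 5. Fbln1 (ENSMUSG00000006369, chr15:85205949-85286535, plus strand of GRCm38) codes for fibulin-1, a secreted glycoprotein of elastic fibres and basement membranes. Its FPKM was 8.22, 12.3 and 5.70 in the control mice, 58.5, 58.0 and 49.3 in the TAI mice and 58.2, 68.7 and 80.0 in the TAI/IVIg mice. The control mice and the irradiated mice did not overlap, and the TAI/IVIg mice lay within or above the TAI range. The difference was 2.58 ± 0.24 in TAI mice (adjusted p = 0.00036) and 2.89 ± 0.24 in TAI/IVIg mice (adjusted p = 0.000153). These comparisons share their control mice. Between TAI/IVIg and TAI the difference was 0.31 ± 0.24 (95% interval -0.23 to 0.84, adjusted p = 0.564).

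Thbs1 (thrombospondin-1, which binds cells and matrix and can activate latent TGF-beta) was the next largest. Thbs1 (chr2:118111876-118127133, plus strand) had FPKM 5.32, 8.35 and 6.64 in the control mice, 25.2, 35.5 and 26.5 in the TAI mice and 31.8, 10.8 and 7.32 in the TAI/IVIg mice. All TAI mice lay above all control mice, while in the TAI/IVIg group mouse 1 lay in the TAI range, mouse 3 in the control range and mouse 2 between them. The difference was 1.95 ± 0.43 for TAI against control (adjusted p = 0.00998), 0.94 ± 0.43 for TAI/IVIg against control (adjusted p = 0.103) and -1.01 ± 0.43 for TAI/IVIg against TAI (adjusted p = 0.382).

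Tnc (tenascin-C, a glycoprotein known for its rise in injured tissue) had FPKM 4.69, 6.01 and 4.76 in the control mice, 13.2, 19.3 and 8.91 in the TAI mice and 11.4, 5.76 and 3.93 in the TAI/IVIg mice. Every TAI mouse was above every control mouse, and the difference was 1.21 ± 0.35 (adjusted p = 0.027). Fbln5 (fibulin-5, needed to assemble elastic fibres) was low, at FPKM 0.616, 1.47 and 0.535 in the control mice, 2.08, 2.47 and 1.90 in the TAI mice and 1.65, 1.24 and 1.15 in the TAI/IVIg mice, and in TAI mice rose by 0.78 ± 0.20 (adjusted p = 0.0172). Col14a1 had FPKM 0.952, 1.89 and 0.750 in the control mice, 3.64, 5.26 and 1.84 in the TAI mice and 2.44, 1.86 and 1.73 in the TAI/IVIg mice. Here TAI mouse 3 lay below control mouse 2, and the difference was 1.02 ± 0.30 (adjusted p = 0.0275). Of the control mice, only mouse 2 reached FPKM 1 for Fbln5 and for Col14a1. Both genes thus needed irradiated mice to pass the filter, a limit on their tests.

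**Figure D1:**
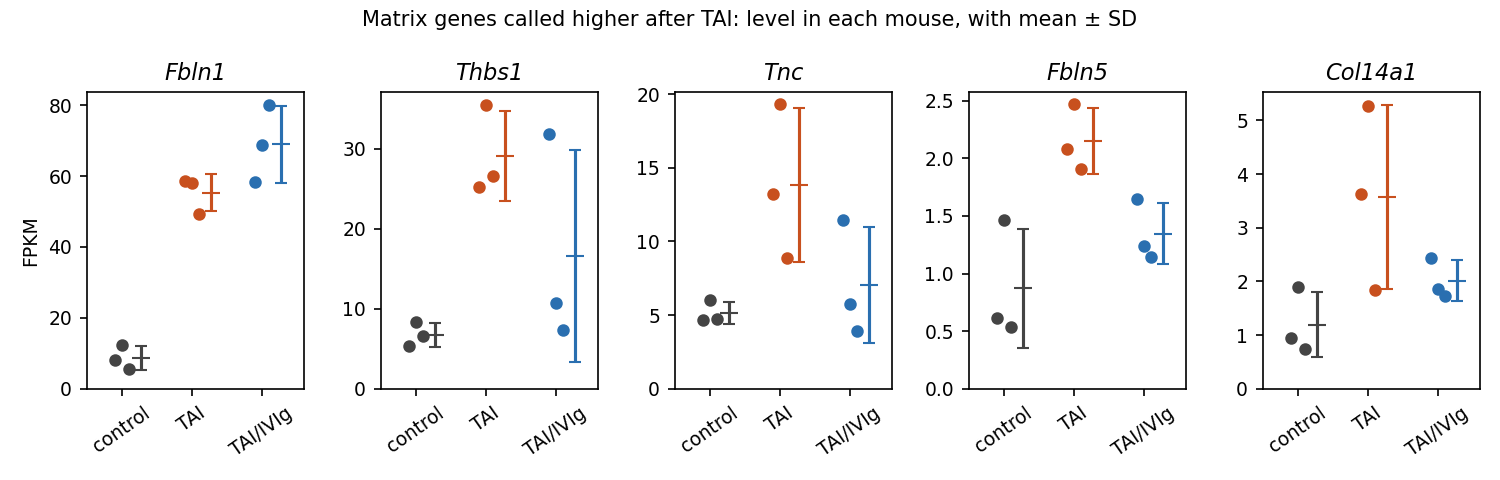
FPKM of the 5 matrix genes called higher in TAI mice, with a point for each mouse and the group mean ± SD beside it (3 mice a group, each panel with its own axis from 0). Fbln1 stayed between 58.2 and 80.0 in the TAI/IVIg mice, whereas Thbs1 and Tnc in 2 of the 3 TAI/IVIg mice were lower than in all TAI mice.

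The count of 5 depended on single mice and on scaling. Leaving out control mouse 3, TAI mouse 1 or TAI mouse 2 gave 2, and leaving out control mouse 1 gave 3. Omitting TAI/IVIg mouse 1 gave 10, and omitting mouse 3 of that group gave 12. Fbln1 and Thbs1 were called in each of these. With only the 6 control and TAI mice in the fit it was 14, and 16 with the mouse number as a replicate block added. Where library medians were set equal, 15 matrix genes were higher and 0 lower, and the split over all genes changed from 1150 higher and 3411 lower to 2159 and 1823, as that scaling moved the median difference of all genes from -0.235 to 0.05.

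Promoter sequences from RefSeq (build GRCm38.p6) were at hand for 35 of the 52 genes. The 250 bases before the start are printed for Fbln1, Fbln5 and Tnc, the called genes that were higher in TAI mice and had an entry, and for Col3a1, which is lower in TAI/IVIg mice than in control mice, to show how unlike each other these promoters are. They run 5′ to 3′ on the strand of the gene, and capitals mark every match, on either strand, to 1 of 7 motifs. The motifs searched were the TATA box (letters TATAAA), the box named for its letters CCAAT, the GC box (letters GGGCGG), the SMAD-binding element (letters CAGACA), the AP-1 element (letters TGANTCA), the p53 half-site and the CArG box.
Fbln1, chr15:85205699-85205948, plus strand: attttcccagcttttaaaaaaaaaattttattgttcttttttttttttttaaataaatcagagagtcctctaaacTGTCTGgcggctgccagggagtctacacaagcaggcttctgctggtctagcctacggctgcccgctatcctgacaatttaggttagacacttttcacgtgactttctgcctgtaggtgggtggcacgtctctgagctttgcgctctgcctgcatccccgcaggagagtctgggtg
Fbln5, chr12:101819120-101819369, minus strand: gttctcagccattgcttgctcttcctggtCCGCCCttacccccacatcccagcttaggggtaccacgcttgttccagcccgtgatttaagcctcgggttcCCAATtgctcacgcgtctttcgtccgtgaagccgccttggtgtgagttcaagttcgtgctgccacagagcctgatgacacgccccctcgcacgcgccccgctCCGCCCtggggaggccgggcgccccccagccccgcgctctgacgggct
Tnc, chr4:64047016-64047265, minus strand: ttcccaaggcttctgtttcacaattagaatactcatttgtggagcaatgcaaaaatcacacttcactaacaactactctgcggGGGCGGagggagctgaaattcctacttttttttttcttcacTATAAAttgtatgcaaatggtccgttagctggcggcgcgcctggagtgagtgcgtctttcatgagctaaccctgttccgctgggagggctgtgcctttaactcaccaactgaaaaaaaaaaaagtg
Col3a1, chr1:45311288-45311537, plus strand: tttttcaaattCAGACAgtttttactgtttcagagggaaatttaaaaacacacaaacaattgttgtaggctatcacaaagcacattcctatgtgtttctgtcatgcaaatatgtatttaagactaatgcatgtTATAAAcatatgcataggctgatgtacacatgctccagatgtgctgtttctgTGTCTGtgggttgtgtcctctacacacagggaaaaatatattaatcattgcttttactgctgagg
The Fbln1 window holds a CAGACA match and no other of the 7 motifs, and its GC content is 46.4%. The Fbln5 window has 65.2% GC, a CCAAT box and 2 GC boxes. Tnc has a TATA box and a GC box at 44.8% GC. Col3a1 has a TATA box and 2 CAGACA matches at 35.2% GC. Over the 35 windows, 22 held a GC box (62.9%, against 33.0% of 27025 promoters), 14 a CCAAT box (40.0% against 34.5%), 7 CAGACA (20.0% against 17.1%) and 4 a TATA box (11.4% against 13.0%). An AP-1 element was found in 1 (2.86% against 6.85%), a p53 half-site in 2 (5.71% against 7.16%) and a CArG box in 1 (2.86% against 1.41%). A match is a run of letters and not a binding site.

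limma with all 9 mice called 0 of the 12 tested basement membrane genes in TAI mice, where 8.81% of all genes were called higher. At an unadjusted p under 0.05, 2 of the 12 were higher, beside 1556 of all 13056 genes. Col4a1, Col4a2, Lamb2 and Hspg2 were called higher under 4 to 7 of the alternatives, the replicate block in 6 mice among them for Col4a1, Col4a2 and Hspg2. Over all genes, 1150 were called higher in the main fit, 1317 with that block and 2159 with library medians set equal. A positive difference was seen for 11 of the 12, where 33.6% of all genes had one. The median of the 12 was 0.33, and it ran from 0.15 without TAI mouse 2 to 0.53 without control mouse 2. The median of the 11 interstitial collagens was 0.21 (0.10 without TAI mouse 2 and 0.42 without control mouse 2). Of these 11, Col14a1 was called (9.09%, against 8.81% of all genes). The basement membrane median was 0.12 above the interstitial median, and this gap ranged from -0.025 (without control mouse 3) to 0.12 with 1 mouse left out. Basement membrane genes are described first, because type IV collagen was the most abundant of them.

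Collagen IV alpha 1 (Col4a1, chr8:11198423-11312826, minus strand) and alpha 2 (Col4a2, chr8:11312805-11449287, plus strand) form one network-forming molecule. Their genes lie head to head, and their first exons share 22 bases at chr8:11312805-11312826, shown in capitals for the bases that both transcripts cover, as read on the plus strand.
Col4a1 and Col4a2, shared start: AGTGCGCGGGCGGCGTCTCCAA
Col4a1 had FPKM 13.2, 21.1 and 15.9 in the control mice, 27.5, 30.9 and 22.2 in the TAI mice and 18.6, 12.0 and 7.30 in the TAI/IVIg mice. Col4a2 had FPKM 8.50, 12.3 and 10.9 in the control mice, 18.1, 22.7 and 15.2 in the TAI mice and 13.3, 9.05 and 4.76 in the TAI/IVIg mice. For both genes every TAI mouse was above every control mouse and above every TAI/IVIg mouse. The difference for TAI against control was 0.66 ± 0.30 for Col4a1 (adjusted p = 0.115) and 0.76 ± 0.31 for Col4a2 (adjusted p = 0.0855), and neither passed the threshold. Col4a1 was called under 5 and Col4a2 under 7 of 20 alternatives (lowest adjusted p = 0.0243 and 0.0166). In TAI/IVIg mice the difference from TAI was -1.11 ± 0.30 and -1.05 ± 0.31 (both adjusted p = 0.353). Against control it was -0.44 ± 0.30 (adjusted p = 0.246) and -0.29 ± 0.31 (adjusted p = 0.461), and both turned positive, to 0.05 and 0.20, with library medians set equal. The ratio of Col4a1 to Col4a2 stayed between 1.32 and 1.71 in all 9 mice.

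Perlecan (Hspg2), the large heparan sulphate proteoglycan of basement membranes, had FPKM 1.80, 3.19 and 2.75 in the control mice, 3.92, 4.73 and 3.75 in the TAI mice and 2.52, 1.96 and 0.951 in the TAI/IVIg mice. TAI mice again lay above both other groups in every mouse. The difference was 0.54 ± 0.24 for TAI against control (adjusted p = 0.111), -0.91 ± 0.24 for TAI/IVIg against TAI (adjusted p = 0.353) and -0.37 ± 0.24 for TAI/IVIg against control (adjusted p = 0.222), the last of which turned to 0.12 with library medians set equal.

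Laminins are trimers of an alpha, a beta and a gamma chain. Among the alpha chains of the list, Lama5 was the most abundant, at FPKM 4.59 ± 1.28, 6.53 ± 1.43 and 3.51 ± 1.15 (SD, n = 3) in control, TAI and TAI/IVIg mice. Lama4, the chain of vessels and muscle, had FPKM 1.45, 2.53 and 1.57 in the control mice, 1.93, 2.66 and 1.73 in the TAI mice and 1.25, 0.922 and 0.450 in the TAI/IVIg mice. All TAI/IVIg mice lay below all other mice, and the difference from control was -0.61 ± 0.22 (adjusted p = 0.0471), a call that held under 6 of 18 alternatives. Lama2 did not exceed FPKM 0.374 in any mouse. Within a mouse, the ratio of Lama5 to Lama4 was 2.25 to 2.92 in control, 2.67 to 3.93 in TAI and 3.74 to 5.31 in TAI/IVIg mice, so the TAI/IVIg mice lay above the control mice without overlap and overlapped the TAI mice.

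Of the beta chains, Lamb1 had FPKM 8.30 ± 3.16, 8.00 ± 3.16 and 4.33 ± 1.16 (SD, n = 3) in the groups in that order. Lamb2, a beta chain of muscle and vessel basement membranes, had FPKM 1.96, 2.62 and 2.15 in the control mice, 3.35, 3.98 and 4.43 in the TAI mice and 3.08, 2.23 and 0.980 in the TAI/IVIg mice, and all TAI mice were above all others. The gamma chain Lamc1 had FPKM 7.59 ± 1.28, 8.86 ± 1.95 and 4.89 ± 2.36 (SD, n = 3). The linker nidogen-1 (Nid1) stood at 10.5 ± 1.66, 13.8 ± 3.97 and 7.36 ± 4.04 and nidogen-2 (Nid2) at 1.46 ± 0.607, 1.92 ± 0.529 and 1.43 ± 0.257 (SD, n = 3), and the groups overlapped for both.

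Collagens XV and XVIII, which belong to the basement membrane zone, were led by Col18a1 at FPKM 9.11 ± 4.30, 9.38 ± 4.11 and 5.74 ± 2.19 (SD, n = 3). Col15a1 was at 2.22 ± 1.47, 2.86 ± 0.998 and 1.75 ± 0.699 (SD, n = 3). Both overlapped between all groups. The minor collagen IV chains stayed low, with Col4a5 at FPKM 0.275 to 0.878 and Col4a6 at 0.0748 to 0.470.

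Among the interstitial collagens the beaded-filament collagen VI and the fibrillar collagen III were the most abundant. Col6a1 (chr10:76708792-76726168, minus strand) had FPKM 21.4, 36.0 and 18.9 in the control mice, 32.4, 34.8 and 20.4 in the TAI mice and 22.4, 14.4 and 9.11 in the TAI/IVIg mice. The TAI mice overlapped both other groups. The difference for TAI against control was 0.21 ± 0.35 (adjusted p = 0.66), that for TAI/IVIg against control -0.72 ± 0.35 (adjusted p = 0.116) and that for TAI/IVIg against TAI -0.94 ± 0.35 (adjusted p = 0.363). Its partner chains were lower, Col6a2 at FPKM 10.4 ± 4.67, 11.1 ± 3.70 and 5.68 ± 2.30 and Col6a3 at 4.00 ± 1.88, 3.97 ± 1.07 and 2.32 ± 0.450 (SD, n = 3). The ratio of Col6a1 to Col6a2 stayed at 2.28 to 2.99 in all 9 mice.

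Col3a1 (chr1:45311538-45349706, plus strand), which codes for the fibrillar collagen of distensible organs, had FPKM 19.6, 31.5 and 15.8 in the control mice, 17.3, 24.4 and 14.1 in the TAI mice and 11.7, 8.53 and 5.81 in the TAI/IVIg mice. TAI and control mice overlapped, while every TAI/IVIg mouse was below every other mouse. Between TAI/IVIg and control the difference was -1.26 ± 0.31 (adjusted p = 0.0108). The difference for TAI against control was -0.22 ± 0.31 (adjusted p = 0.596), and it turned positive, to 0.06, with library medians set equal and to 0.04 without control mouse 2. That for TAI/IVIg against TAI was -1.03 ± 0.31 (adjusted p = 0.353).

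Collagen V regulates the width of collagen fibrils. Col5a2 had FPKM 3.34, 4.05 and 3.16 in the control mice, 3.33, 3.84 and 2.96 in the TAI mice and 2.07, 1.82 and 0.821 in the TAI/IVIg mice. The TAI/IVIg mice lay below all others, and the difference from control was -0.84 ± 0.21 (adjusted p = 0.0102). From TAI it was -0.80 ± 0.21 (adjusted p = 0.353). TAI and control differed by -0.04 ± 0.21 (adjusted p = 0.881), a value that was 0.24 with library medians set equal. Col5a1 was at FPKM 3.29 ± 1.08, 4.42 ± 0.983 and 2.28 ± 0.690 (SD, n = 3), and Col5a3 at 0.236 to 1.36 over all mice.

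The 2 chains of collagen I, the main fibrillar collagen, kept a ratio of 0.839 to 1.24 in all 9 mice. Col1a1 had FPKM 5.35, 9.77 and 7.34 in the control mice, 10.6, 12.3 and 7.53 in the TAI mice and 6.35, 5.06 and 2.98 in the TAI/IVIg mice. Control and TAI/IVIg mice overlapped for Col1a1. Col1a2 had FPKM 6.37, 9.15 and 8.71 in the control mice, 8.54, 10.3 and 8.75 in the TAI mice and 5.82, 5.58 and 2.96 in the TAI/IVIg mice. For Col1a2 every TAI/IVIg mouse was below every control and TAI mouse, with a difference from control of -0.68 ± 0.23 (adjusted p = 0.0356), called under 9 of 19 alternatives. Among collagens that coat fibrils or link them to cells, Col12a1 had FPKM 0.476, 0.970 and 0.785 in the control mice and 1.51, 2.18 and 1.24 in the TAI mice. Its mean was 0.764 in the TAI/IVIg mice. Col12a1 passed the filter only through irradiated mice, so the lack of overlap between control and TAI mice is description only. Col16a1 was at 1.66 ± 0.347, 2.36 ± 0.150 and 1.37 ± 0.553 (SD, n = 3) in the 3 groups.

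**Figure D2:**
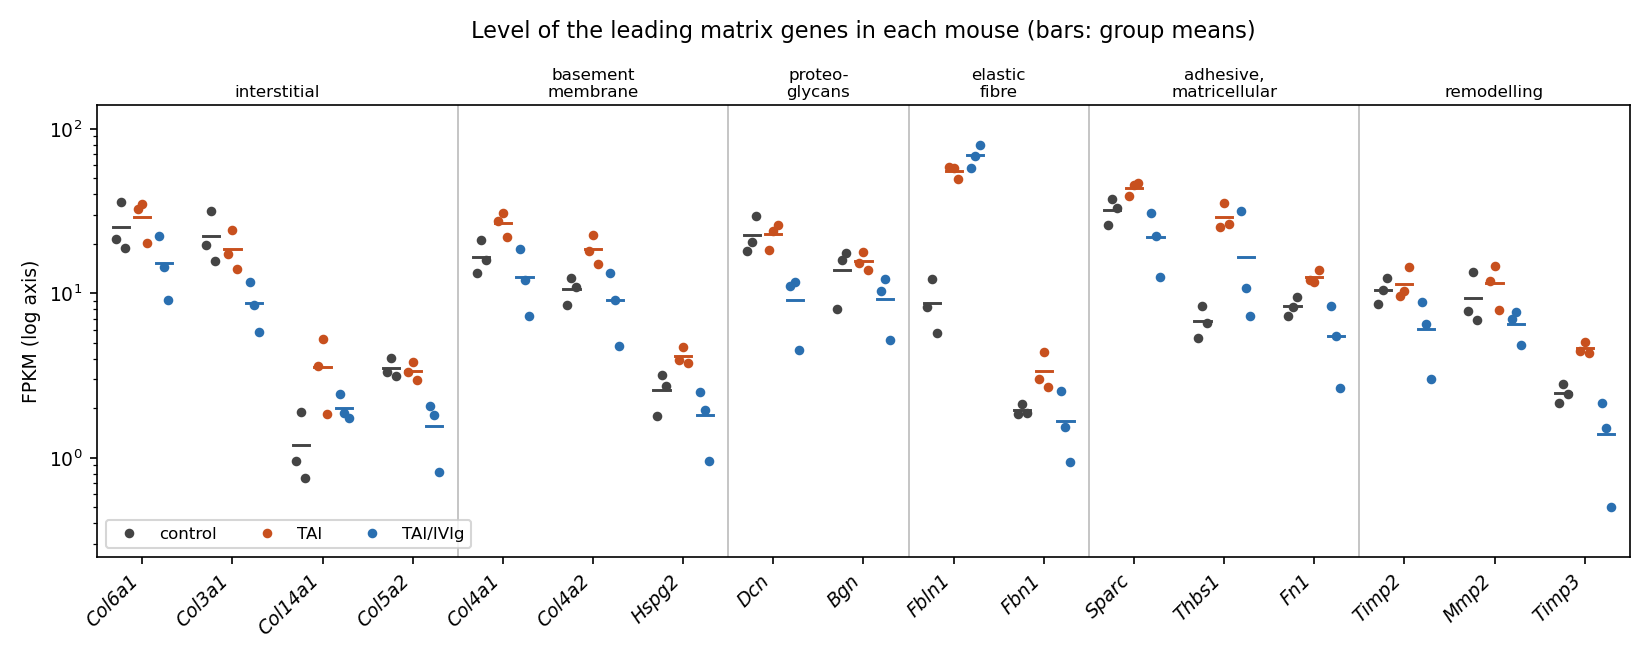
FPKM of 17 matrix genes on a log axis, with a point for each mouse and a bar for the mean of each group of 3. They are the 2 most abundant of each role group and those with the smallest p, and apart from Fbln1, the TAI/IVIg mean of every gene shown is below the TAI mean, and TAI/IVIg mouse 3 is the lowest of all 9 mice for most of them.

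The balance of basement membrane to interstitial collagen can be read within a mouse, where library scaling cancels. The summed FPKM of Col4a1 and Col4a2 divided by that of Col1a1, Col1a2 and Col3a1 was 0.663 to 0.842 in control mice, 1.14 to 1.25 in TAI mice and 1.03 to 1.34 in TAI/IVIg mice. Both irradiated groups lay above the control mice without overlap, and they overlapped each other. The whole basement membrane list divided by the whole interstitial list gave 0.833 to 0.952 in control, 1.08 to 1.12 in TAI and 1.04 to 1.17 in TAI/IVIg mice. The ratio of Col1a1 to Col3a1 was 0.272 to 0.466 in control, 0.503 to 0.610 in TAI and 0.513 to 0.593 in TAI/IVIg mice. They are among 13 ratios that were computed and were picked after their values were seen, so no test is given for them. An exact permutation test of 3 against 3 mice cannot go below p = 0.1.

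**Figure D3:**
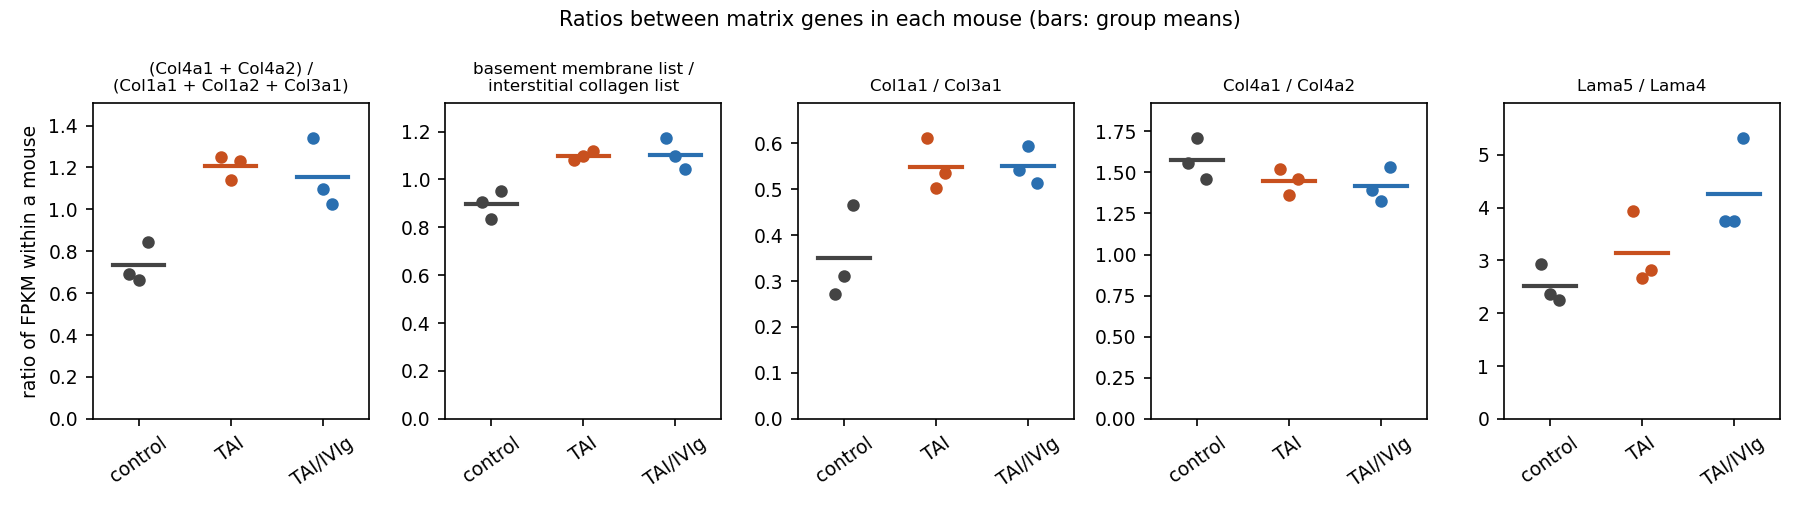
Ratios of FPKM within each mouse, with a point for each mouse, a bar for the mean of 3 and each axis from 0. Collagen IV to collagen I and III, the summed lists, and Col1a1 to Col3a1 are higher in both irradiated groups than in control mice without overlap, while Col4a1 to Col4a2 overlaps between the groups.

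In TAI/IVIg mice, 6 matrix genes were lower than in control mice and 1, Fbln1, was higher. The 6 were Col1a2, Col3a1, Col5a2, Lama4, Dcn and Postn. Their share of the 44 tested, 13.6%, was under the 37.4% of all genes called lower, and the 2.27% called higher was under the 9.06% of all genes. The median difference of the matrix genes was -0.55, against -0.39 for all genes, but without TAI/IVIg mouse 3 it was -0.26 against -0.34, and with library medians set equal it was -0.057 against 0.098. This count also moved with scaling and with 1 mouse. With library medians set equal 4 were higher and 1, Dcn, was lower, while over all genes 2880 were higher and 1894 lower in place of 1183 and 4880. The number lower was 18 when TAI/IVIg mouse 1 was left out and 4 when mouse 3 of that group was. Over all genes, 4135 and 3585 were lower in these fits. Some markers of other cells were called lower against control as well. Of 11 smooth muscle markers 3 were called, Smtn (-1.34 ± 0.27, adjusted p = 0.00463), Lmod1 (-1.37 ± 0.31, adjusted p = 0.00709) and Mylk (-0.84 ± 0.28, adjusted p = 0.0346). So were 3 of 11 fibroblast markers (Pdgfra, Thy1 and Ly6a) and 1 of 11 endothelial markers (Lyve1). These shares, 27.3%, 27.3% and 9.09%, were under the 37.4% of all genes called lower. The medians were -0.92 for smooth muscle, -0.27 for fibroblast and -0.17 for endothelial markers, against -0.39 for all genes. The part of these cells in the matrix differences was not tested.

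Decorin (Dcn, chr10:97479609-97518143, plus strand), a small leucine-rich proteoglycan that binds collagen fibrils and TGF-beta, was the most abundant proteoglycan and was called lower under each of 19 alternatives. Its FPKM was 18.1, 20.5 and 29.5 in the control mice, 18.4, 23.9 and 26.2 in the TAI mice and 11.1, 11.7 and 4.53 in the TAI/IVIg mice. The TAI mice lay within the control range and all TAI/IVIg mice lay below it. The difference was -1.29 ± 0.32 for TAI/IVIg against control (adjusted p = 0.0113), 0.02 ± 0.32 for TAI against control (adjusted p = 0.963) and -1.31 ± 0.32 for TAI/IVIg against TAI (adjusted p = 0.353).

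Biglycan (Bgn), its close relative, had FPKM 8.03, 16.0 and 17.6 in the control mice, 15.2, 17.9 and 13.8 in the TAI mice and 10.3, 12.2 and 5.18 in the TAI/IVIg mice. TAI and TAI/IVIg mice did not overlap, but the control mice overlapped both, and the difference for TAI/IVIg against TAI was -0.77 ± 0.33 (adjusted p = 0.382). It was 0.22 ± 0.33 for TAI against control (adjusted p = 0.627) and -0.54 ± 0.33 for TAI/IVIg against control (adjusted p = 0.204). Lumican (Lum) had FPKM 8.91, 10.6 and 14.2 in the control mice, 10.9, 13.2 and 16.7 in the TAI mice and 7.61, 6.15 and 1.22 in the TAI/IVIg mice. Osteoglycin (Ogn) had FPKM 12.8, 10.1 and 13.0 in the control mice, 10.5, 10.3 and 23.3 in the TAI mice and 11.2, 4.82 and 1.72 in the TAI/IVIg mice. For Lum the TAI/IVIg mice were below all other mice, and for Ogn TAI/IVIg mouse 1 was within the control range. Versican (Vcan), a large proteoglycan of provisional matrix, was under the filter, at FPKM 0.247, 0.395 and 0.200 in the control mice, 0.977, 1.49 and 0.394 in the TAI mice and 0.381, 0.248 and 0.140 in the TAI/IVIg mice. The median difference of the 4 tested proteoglycans was -1.19 for TAI/IVIg against control and -1.33 for TAI/IVIg against TAI, the most negative of the 6 role groups in both, and without TAI/IVIg mouse 3 they were -0.61 and -0.84.

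Of the elastic fibre genes other than the fibulins named above, fibrillin-1 (Fbn1) is the scaffold of microfibrils. Fbn1 had FPKM 1.85, 2.12 and 1.88 in the control mice, 3.02, 4.39 and 2.70 in the TAI mice and 2.55, 1.54 and 0.944 in the TAI/IVIg mice. Every TAI mouse was above every other mouse, with a difference of 0.55 ± 0.23 from control (adjusted p = 0.0932) and, in TAI/IVIg mice, -0.73 ± 0.23 from TAI (adjusted p = 0.353) and -0.18 ± 0.23 from control (adjusted p = 0.531), the last turning to 0.31 with library medians set equal. Of the Fbn1 exon bases, 20.1% lie opposite exons of another gene, and the strand setting of the counting is not given in the sources used here. Elastin (Eln) had FPKM 0.789, 1.17 and 1.36 in the control mice, 2.17, 2.07 and 2.73 in the TAI mice and 1.74, 1.50 and 0.376 in the TAI/IVIg mice, with all TAI mice above all others. The microfibril genes Mfap4 and Mfap5 did not exceed FPKM 3.49 and 0.718, and Fbln2 was at 0.131 to 1.36.

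The adhesive and matricellular genes were led by Sparc (osteonectin, a collagen-binding protein). Sparc had FPKM 25.9, 37.6 and 33.2 in the control mice, 39.1, 45.5 and 46.6 in the TAI mice and 31.0, 22.4 and 12.7 in the TAI/IVIg mice. The TAI mice were above all control mice, and the TAI/IVIg mice below all TAI mice. The difference was 0.44 ± 0.28 for TAI against control (adjusted p = 0.249), -0.60 ± 0.28 for TAI/IVIg against control (adjusted p = 0.11) and -1.04 ± 0.28 for TAI/IVIg against TAI (adjusted p = 0.353).

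Fibronectin (Fn1), the adhesive glycoprotein to which integrins attach cells, showed the same order. Its FPKM was 7.28, 8.20 and 9.48 in the control mice, 12.0, 11.7 and 13.8 in the TAI mice and 8.37, 5.48 and 2.65 in the TAI/IVIg mice. The difference was 0.54 ± 0.29 for TAI against control (adjusted p = 0.182), -0.62 ± 0.29 for TAI/IVIg against control (adjusted p = 0.112) and -1.16 ± 0.29 for TAI/IVIg against TAI (adjusted p = 0.353). Periostin (Postn) had FPKM 4.34, 4.19 and 5.99 in the control mice, 4.19, 4.16 and 5.55 in the TAI mice and 3.09, 1.67 and 0.548 in the TAI/IVIg mice, and TAI/IVIg mice lay below all others, with a difference from control of -1.17 ± 0.31 (adjusted p = 0.0152). Dermatopontin (Dpt) had FPKM 11.1, 13.0 and 14.7 in the control mice, 17.7, 19.3 and 23.5 in the TAI mice and 12.4, 8.43 and 1.42 in the TAI/IVIg mice, and thrombospondin-2 (Thbs2) was at 2.65 ± 0.549, 2.82 ± 0.999 and 1.37 ± 0.971 (SD, n = 3).

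Among the remodelling genes, Mmp2, which codes for a gelatinase that cuts collagen IV, had FPKM 7.82, 13.5 and 6.92 in the control mice, 11.8, 14.8 and 7.93 in the TAI mice and 7.03, 7.70 and 4.83 in the TAI/IVIg mice. Control and TAI mice overlapped, and the difference was 0.28 ± 0.29 (adjusted p = 0.47). It was -0.72 ± 0.29 for TAI/IVIg against TAI (adjusted p = 0.364) and -0.44 ± 0.29 for TAI/IVIg against control (adjusted p = 0.227), which turned to 0.05 with library medians set equal. The inhibitor Timp2 had FPKM 8.63, 10.4 and 12.3 in the control mice, 9.59, 10.3 and 14.4 in the TAI mice and 8.82, 6.50 and 3.01 in the TAI/IVIg mice. Its difference was 0.11 ± 0.31 for TAI against control (adjusted p = 0.798), -0.77 ± 0.31 for TAI/IVIg against control (adjusted p = 0.0686) and -0.88 ± 0.31 for TAI/IVIg against TAI (adjusted p = 0.359).

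Timp3 (chr10:86300372-86349506, plus strand), the inhibitor that stays bound to the matrix, had the smallest unadjusted p of the 44 genes between TAI/IVIg and TAI. Its FPKM was 2.14, 2.82 and 2.44 in the control mice, 4.46, 5.07 and 4.33 in the TAI mice and 2.14, 1.52 and 0.505 in the TAI/IVIg mice. All TAI mice were above all others, and the difference was -1.30 ± 0.25 (unadjusted p = 0.000532 from limma, adjusted p = 0.353). For TAI against control it was 0.70 ± 0.25 (adjusted p = 0.0543) and for TAI/IVIg against control -0.60 ± 0.25 (adjusted p = 0.075). Of its exon bases, 21.3% lie opposite exons of Syn3, so without a known strand setting reads of the pair cannot be told apart there. Timp1 had FPKM 1.56, 2.04 and 3.06 in the control mice, 4.01, 5.95 and 2.59 in the TAI mice and 2.94, 1.66 and 0.873 in the TAI/IVIg mice. The crosslinking enzymes were low, with Loxl1 at 1.27 ± 0.282, 1.72 ± 0.107 and 1.15 ± 0.789 (SD, n = 3) and Lox, under the filter, at 0.205, 0.343 and 0.338 in the control mice, 0.806, 1.13 and 1.11 in the TAI mice and 0.652, 0.419 and 0.150 in the TAI/IVIg mice.

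**Figure D4:**
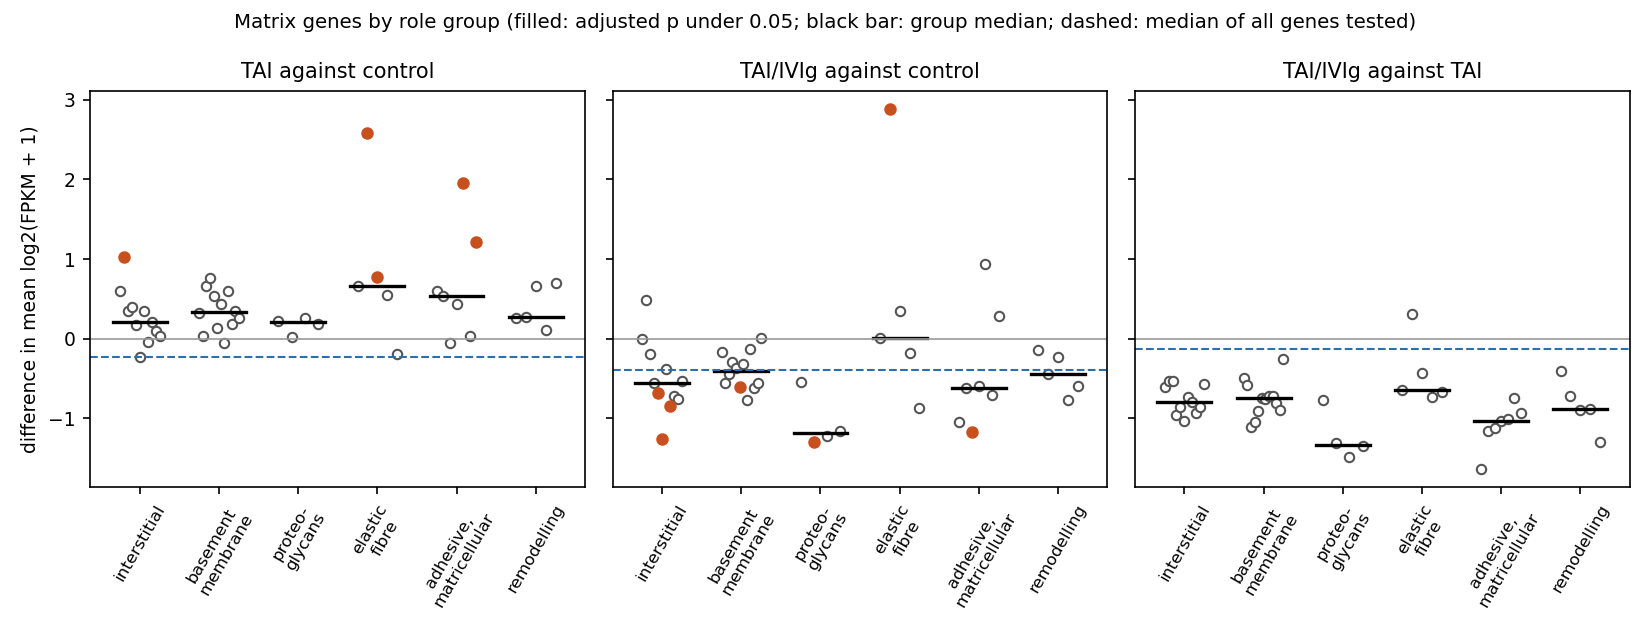
Difference in mean log2(FPKM + 1) of each tested matrix gene by role group, in 3 panels for the 3 comparisons, with filled points called at an adjusted p under 0.05, black bars for the group medians and a dashed line for the median of all 13056 genes. For TAI/IVIg against TAI no point is filled and 43 of 44 lie below 0, and for TAI/IVIg against control the medians of the basement membrane and remodelling groups turn positive with library medians set equal.

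Between TAI/IVIg and TAI mice limma called 0 of 44 matrix genes in either direction, as it called 0% of the 13056 genes tested, and voom on the recovered reads called 0 as well. At an unadjusted p under 0.05, 34 matrix genes were lower and 0 higher. That is 77.3% of the 44, where 11.2% of all genes were lower by the same rule. A negative difference was seen for 43 of the 44 (97.7%, against 69.6% of all genes), and Fbln1 was the exception. In 27 genes (61.4%, against 16.1% of all genes) every TAI/IVIg mouse was below every TAI mouse. In the same way, 17 of the 44 (38.6%, against 15.1% of all genes) had every TAI mouse above every control mouse. Col12a1, which passed the filter without any control mouse, is among them. The smallest adjusted p among the matrix genes was 0.353, and the median difference was -0.80 against -0.13 for all genes.

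The role group medians were -0.80 for the 11 interstitial collagens, -0.75 for the 12 basement membrane genes, -1.33 for the 4 proteoglycans, -0.65 for the 5 elastic fibre genes, -1.04 for the 7 adhesive genes and -0.88 for the 5 remodelling genes. Without TAI/IVIg mouse 3 the remodelling median was -0.54. The count of 34 rested in part on single mice: leaving out TAI/IVIg mouse 3 gave 18, and leaving out TAI mouse 1 gave 22. It was 19 with library medians set equal, and 43 of 44 differences stayed negative. The counts over all genes fell as well. Of 13056 genes, 1466 were lower by this rule in the main fit and 567 without TAI/IVIg mouse 3. Without TAI mouse 1 it was 1044, and 580 with library medians set equal.

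The summed FPKM of the lists put the TAI/IVIg mice in one order except for the elastic fibre sum. The interstitial collagens summed to 68.7, 49.8 and 31.9 in TAI/IVIg mice 1, 2 and 3, and to 73.8 to 120.2 in TAI mice. Basement membrane genes summed to 33.2 to 80.4 in TAI/IVIg, 82.6 to 132 in TAI and 66.8 to 102 in control mice. The elastic fibre sum went the other way, from 13.3 to 19.3 in control mice to 61.2 to 69.2 in TAI and 65.5 to 82.9 in TAI/IVIg mice. That sum was mostly Fbln1, whose mean was 68.9 of a mean sum of 74.4 in TAI/IVIg mice. Of the 5 elastic fibre genes tested, 4 had a negative difference between TAI/IVIg and TAI, all but Fbln1.

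Markers of the cells outside the epithelium differed in the same direction as the matrix genes. The 11 smooth muscle markers, each of which passed the filter, summed to 812 to 1210.2 in TAI mice and to 882, 485 and 189 in TAI/IVIg mice 1, 2 and 3. All 11 had a negative difference between TAI/IVIg and TAI. All 11 tested endothelial markers had a negative difference too, with sums of 64.6 to 89.3 in TAI and 35.7 to 54.9 in TAI/IVIg mice. The same held for 11 of 11 fibroblast markers tested, and without Ly6a, an abundant gene that epithelium also expresses, they summed to 65.4 to 81.3 in TAI and 28.1 to 67.8 in TAI/IVIg mice. The epithelial markers summed to 23103 to 35397 in TAI and 31531 to 34937 in TAI/IVIg mice, and 4 of 13 had a negative difference. So did 9 of 10 macrophage, 3 of 3 mesothelial, 5 of 5 adipocyte and 6 of 6 enteric neuron and glia markers. None of these 8 lists had a gene called by limma between these groups, and 5 fibroblast, 9 smooth muscle and 5 endothelial markers were lower at an unadjusted p under 0.05 (45.5%, 81.8% and 45.5% of those tested, where 11.2% of all genes were lower by this rule and 69.6% had a negative difference). The part of cell composition in the differences of the matrix genes was not tested.

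**Figure D5:**
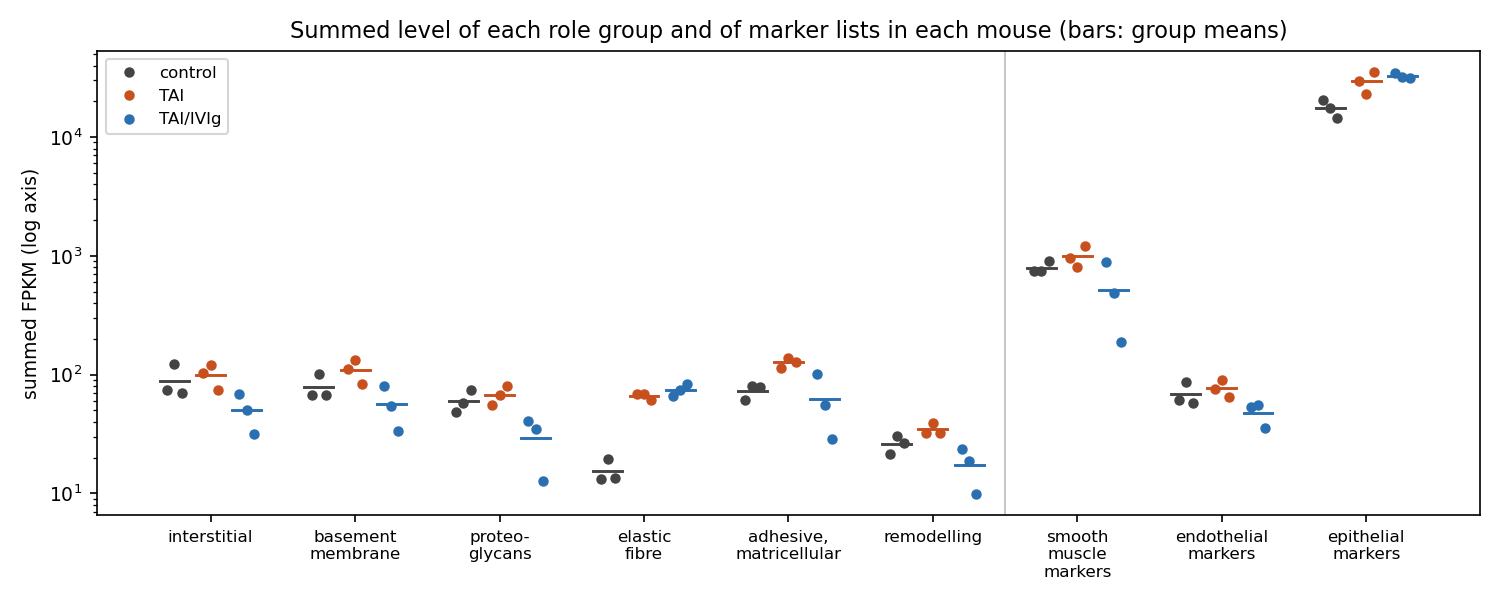
Summed FPKM of the 6 role groups and of 3 marker lists in each mouse, on a log axis, with bars for the means of 3 mice. TAI/IVIg mouse 3 is the lowest of the 9 mice for 5 role groups and for the smooth muscle and endothelial markers. Its elastic fibre sum of 82.9, made up mainly of Fbln1, is the highest.

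Other matrix genes and matrix receptors set the members in context. Of 53 further matrix genes tested, 14 were higher and 2 lower in TAI mice than in control mice, and of 20 receptors 7 were higher and 0 lower. For the 53 genes these are 26.4% and 3.77%, beside 8.81% and 26.1% of all genes. The 3 with the smallest p in each list were Lama3 (2.21 ± 0.24), Bmp1 (1.45 ± 0.18) and Ccn1 (1.69 ± 0.23), and the receptors Itgb5 (1.51 ± 0.16), Ddr1 (0.93 ± 0.14) and Itgb6 (1.92 ± 0.30). Lama3 codes for the alpha chain of the laminin that anchors epithelium, and Bmp1 for the enzyme that trims procollagens. Lama3 had FPKM 1.19, 0.848 and 1.56 in the control mice, 8.35, 10.02 and 8.86 in the TAI mice and 13.4, 6.99 and 6.84 in the TAI/IVIg mice, and every irradiated mouse was above every control mouse. The 2 genes that fell were Tgfbi (-0.85 ± 0.16) and P4hb (-0.74 ± 0.23), and among receptors Itga2 had the smallest p of the negative differences (-0.39 ± 0.32, adjusted p = 0.365).

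In TAI/IVIg against control mice, 7 of the 53 were higher and 9 lower, and 5 of the 20 receptors were higher and 4 lower. For the 53 genes that is 13.2% and 17.0%, beside 9.06% and 37.4% of all genes. The leading rises were Lama3 (2.15 ± 0.24), Mmp15 (1.05 ± 0.13) and Bmp1 (1.33 ± 0.18) among matrix genes and Itgb5 (1.53 ± 0.16), Ddr1 (0.97 ± 0.14) and Itgb6 (1.56 ± 0.30) among receptors. The leading falls were Crtap (-0.95 ± 0.22), Tgfbi (-0.67 ± 0.16) and Prelp (-1.30 ± 0.31), and Sdc1 (-0.82 ± 0.14), Itgb3 (-0.78 ± 0.21) and Itga2 (-1.13 ± 0.32). With library medians set equal, 20 genes of both lists were higher and 1 lower, while over all genes 2880 were higher and 1894 lower. Between TAI/IVIg and TAI limma called 0 genes of both lists, 29 of the 53 (54.7%) and 10 of the 20 were lower at an unadjusted p under 0.05 beside 11.2% of all genes, 0 were higher, and voom called 0. The smallest p values went to Mmp3 (-1.27 ± 0.29, adjusted p = 0.353) and Sdc1 (-0.67 ± 0.14, adjusted p = 0.353) among negative differences, and to P4hb (0.36 ± 0.23, adjusted p = 0.5) and Itga3 (0.06 ± 0.19, adjusted p = 0.898) among positive ones. Itga3 turned negative, at -0.14, when TAI mouse 3 was left out, and lay just below 0 when TAI/IVIg mouse 3 was.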

How the data were processed

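Jejunal RNA of 9 mice was sequenced. The authors deposited a gene table of FPKM values for 31685 genes, and the submitters' processing notes name FastQC, Trimmomatic, STAR, featureCounts, DESeq2 and mouse build mm10/GRCm38, without versions. The strand setting is not given in the sources used here. Groups were taken from the sample labels. FPKM values were analysed as log2(FPKM + 1) with limma 3.58.1 in R 4.3.3, with empirical Bayes moderation and a trended prior, all 9 mice in the fit, and Benjamini-Hochberg adjustment within each of the 3 comparisons. This scale understates the change of low genes. A gene entered the test where 3 or more mice had an FPKM of 1 or higher. The method was tested on simulated data. Because FPKM steps gave whole reads for 100% of values (tolerance 0.05), reads were recovered and limma voom was run on them as an alternative. The library totals behind the FPKM values were 16284531 to 18244739 reads, from which the recovered sums differed by at most 0.0161%, and 1 read is the finest step of a level.

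Members and gene lists were chosen with earlier results of these data known. All members are named. Given with tests are, in each role group, the 2 most abundant and those with the smallest p for TAI against control and for TAI/IVIg against TAI. Tnc, Fbln5, Col1a2, Lama4 and Postn were added because they were called. Of other matrix genes and receptors, up to 3 in each direction with the smallest p are named. The labels number the mice 1 to 3 in each group. They do not say whether a number pairs mice. The correlation of mouse-level deviations was 0.271, 0.241 and 0.308 for same-numbered control and TAI mice. Each was above every value for differently numbered control and TAI mice, which ran from -0.336 to 0.146. In each of the other comparisons at least 1 same-numbered pair was under 0.1. The highest value of all, 0.408, was for differently numbered mice, control mouse 3 and TAI/IVIg mouse 2. These values do not settle whether the numbers pair mice. The values given are from the fit without a block, and the block is an alternative. Alternatives were another pseudocount, 2 other filters, 2 other scalings, voom with total or median-ratio library sizes, only the 6 mice compared, a prior without trend, a replicate block and leaving out each mouse. The block in 6 mice was added after the data were seen. Promoters came from RefSeq (GRCm38.p6) and gene positions from the GENCODE annotation of GRCm38.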

Additional observations from a re-analysis of the deposited data

How the results depend on the processing

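Fbln1 was called higher in both irradiated groups and Thbs1 in TAI mice under all 20 alternatives for TAI against control and, for Fbln1, all 19 for TAI/IVIg against control, and Dcn was called lower in TAI/IVIg mice under all 19. Fbln5 kept its call under 16 of 19 alternatives, Tnc under 14 of 20, Col14a1 under 14 of 19, Col3a1 under 16 of 19, Col5a2 under 15 of 18, Postn under 14 of 18, Col1a2 under 9 of 19 and Lama4 under 6 of 18. For TAI against control, calls were gained by Col4a1 under 5 of 20 alternatives, Col4a2 under 7 of 20, Hspg2 under 4 of 19, Fbn1 under 6 of 19 and Timp3 under 7 of 19, in each case with the 3 rescalings and with the replicate block in 6 mice. Between TAI/IVIg and TAI, 0 matrix genes were called by limma under every alternative. In the main fit 34 were lower at an unadjusted p under 0.05, a count that moved with the setting as given below. Unless stated, the cause of a change was not tested.

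Matrix genes called higher in TAI against control numbered 3 with a mean FPKM of at least 5 (fewer genes tested), 15 with library medians set equal, 16 with quantile normalization, 14 in the 6 mice compared, 14 with voom and median-ratio library sizes, and 2 to 12 with 1 mouse left out. With the replicate block the count was 5, and 16 with the replicate block in the 6 mice compared. Over all genes, the number higher was 1150 in the main fit, 1191 with the block and 1317 with the block in 6 mice. It was 1290 in the 6 mice compared, 2159 with medians equal, 1994 with quantile and 1976 with voom median-ratio scaling. With a mean FPKM of at least 5 it was 829 of 6398, and with 1 mouse left out 707 to 1318. For TAI/IVIg against control, 4, 3 and 3 were higher and 1, 1 and 1 lower with medians equal, quantile and voom median-ratio scaling, while the replicate block gave 10 lower and leaving out 1 mouse gave 1 to 2 higher and 4 to 18 lower. Over all genes, the main fit had 1183 higher and 4880 lower. The 3 scalings gave 2880, 2407 and 2420 higher and 1894, 2253 and 2379 lower. With the block 4984 were lower, and with 1 mouse left out 923 to 1160 were higher and 3584 to 4989 lower. The replicate block ended no call in TAI against control of the members. The count lower than TAI at an unadjusted p was 20 with a mean FPKM of at least 5, 19 with medians equal or quantile scaling and 18 to 35 with 1 mouse left out. Over all genes it was 1466 of 13056 in the main fit and 466 of 6398 with a mean FPKM of at least 5. Medians equal and quantile scaling gave 580 and 610, and leaving out 1 mouse 567 to 1951.

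Other matrix genes and receptors higher in TAI against control numbered 11 with a mean FPKM of at least 5, 33 with medians equal or quantile scaling and 14 to 26 with 1 mouse left out. Over all genes, 829 of 6398 were higher with a mean FPKM of at least 5. Medians equal gave 2159, quantile scaling 1994 and leaving out 1 mouse 707 to 1318. Listed genes that were lower numbered 1 with no filter, the replicate block or voom median-ratio scaling, 0 with medians equal and 1 to 3 with 1 mouse left out. All genes lower numbered 2762, 3672 and 1913 with the first 3 of these settings. With medians equal they numbered 1823, and with 1 mouse left out 1643 to 3695. Against control, listed genes higher in TAI/IVIg numbered 20 with medians equal and 10 to 13 with 1 mouse left out, and those lower 6 with a mean FPKM of at least 5, 1 with medians equal, 2 with quantile or voom median-ratio scaling and 6 to 19 with 1 mouse left out. Over all genes, 2880 were higher with medians equal and 923 to 1160 with 1 mouse left out. All genes lower numbered 2465 of 6398, 1894, 2253 (quantile), 2379 (voom) and 3584 to 4989 in these settings.

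The median of the role groups moved as follows. For TAI against control, voom median-ratio scaling gave 0.76 for basement membrane and 0.75 for remodelling genes, and elastic fibre genes had 1.03 with a pseudocount of 0.1, 2.58 with a mean FPKM of at least 5, 0.95 with medians equal, and 1.10 and 1.39 with voom at total and median-ratio library sizes. For TAI/IVIg against control, medians equal, quantile and voom median-ratio scaling gave -0.071, -0.078 and -0.22 for interstitial collagens, 0.50, 0.40 and 0.38 for elastic fibre genes and 0.052, 0.021 and -0.0028 for remodelling genes. Basement membrane genes had 0.084 and 0.016 with the first 2, and elastic fibre genes 2.89 with a mean FPKM of at least 5. Leaving out 1 mouse gave -1.53 to -0.61 for proteoglycans and -0.17 to 0.32 for elastic fibre genes. For TAI/IVIg against TAI, elastic fibre genes had -1.04 with a pseudocount of 0.1, 0.31 with a mean FPKM of at least 5, -0.40 with quantile scaling, -1.07 and -0.90 with voom at total and median-ratio library sizes, and -0.72 to -0.37 with 1 mouse left out, while proteoglycans had -1.67 to -0.84 and remodelling genes -1.16 to -0.54.

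The direction of some genes that were not called turned. For TAI against control, Col3a1 was 0.063, 0.044 and 0.062 and Col5a2 0.24, 0.21 and 0.24 with medians equal, quantile and voom median-ratio scaling. With 1 mouse left out Col3a1 was -0.43 to 0.043, Col5a2 -0.12 to 0.040, Dcn -0.12 to 0.22, Bgn -0.10 to 0.42 and Timp2 -0.056 to 0.23. For TAI/IVIg against control, Col4a1 was 0.049 with medians equal, and Hspg2 0.12 and 0.10 and Mmp2 0.052 and 0.021 with medians equal and quantile scaling. With the 3 scalings Col4a2 was 0.20, 0.13 and 0.15 and Fbn1 0.31, 0.26 and 0.16, and with 1 mouse left out -0.59 to 0.066 and -0.41 to 0.028. Itga3 in TAI/IVIg against TAI was -0.14 to 0.17 with 1 mouse left out.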
